A study of Mus musculus with 6 samples.

Results

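The genes described here are 35 mouse genes of homologous recombination and the Fanconi anaemia pathway, measured by RNA-seq in mesenchymal stromal cells (MSC) from bone marrow. They were chosen by symbol from a list of the proteins that act in these pathways. The rule uses no measured value, but earlier results of these data were known when it was chosen. All 35 were present among the 23420 genes of the count table and all 35 passed the filter on low counts, which left 11974 genes for testing. The study compared 3 libraries labelled Ctl MSC with 3 labelled MSC-TPr. Both groups were MSC from the femoral marrow of female C57BL/6 mice aged 6 to 8 weeks, grown in culture and transduced at passage 5 with a retroviral AP2 vector that also carries eGFP. The vector was empty in Ctl MSC. In MSC-TPr it carried β1i, β2i and β5t (Psmb9, Psmb10 and Psmb11), the catalytic subunits of the thymoproteasome, a form of the proteasome normally made in the thymic cortex. Nothing in the labels says that the 3 libraries of a group came from separate cultures or animals, so p-values measure the spread between these libraries, which may be technical.

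Homologous recombination repairs a broken chromosome by copying the intact sister strand. Break-sensing kinases and nucleases prepare the end, BRCA proteins load a RecA-family recombinase onto it, helper proteins drive the search and exchange of strands, and helicases and nucleases take the joined molecules apart. The Fanconi pathway detects interstrand crosslinks at stalled replication forks, attaches ubiquitin to a clamp of Fancd2 and Fanci, and hands the resulting break to recombination. Both act mainly in cells that copy their DNA, and many of their genes are known to be transcribed at the start of S phase. In bulk RNA, fewer cells of a type and less RNA per cell cannot be told apart.

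Between 16158756 and 22158887 reads per library were assigned to genes, and levels are given as CPM, the reads of a gene relative to its library's total as scaled by edgeR's TMM factors. On this scale 3 reads equal 0.139 to 0.181 CPM. The transduced genes did not bear out the labels. Psmb11 had 1 to 6 reads in every library, too few to compare. Psmb9 read 3.38, 0.801 and 0.827 CPM for Ctl MSC 1, 2 and 3. It read 0.554, 1.24 and 1.21 CPM for MSC-TPr 1, 2 and 3, from 10 to 56 reads per library, and was not higher in every MSC-TPr library. Psmb10 read 27.8, 8.81 and 8.38 CPM for Ctl MSC 1, 2 and 3 and 8.97, 17.3 and 15.2 CPM for MSC-TPr 1, 2 and 3. Every MSC-TPr library lay above Ctl MSC 2 and 3 for Psmb10, and below Ctl MSC 1. Both Psmb9 and Psmb10 had Ctl MSC 1, MSC-TPr 2 and MSC-TPr 3 as their 3 highest libraries, as in 23% of all genes tested. Directions below are therefore directions between library labels. Of 8 MSC markers, 6 exceeded 10 CPM in every library, while Thy1 (CD90) had 0 to 1 reads. The remaining marker, Nt5e (CD73), read 11.4, 20.2 and 17.4 CPM in Ctl MSC 1, 2 and 3. In MSC-TPr 1, 2 and 3 it read 2.66, 4.20 and 5.24 CPM. Every MSC-TPr library thus lay below every Ctl MSC library for Nt5e, as in 12.1% of all genes tested. The summed MSC markers read 1999 to 3088 CPM in Ctl MSC and 1520 to 2694 CPM in MSC-TPr. The summed blood cell markers read 2.36 to 9.77 CPM in Ctl MSC and 1.76 to 14.2 CPM in MSC-TPr. Of these, Cd68 read 0.789 to 14.2 CPM and Csf1r 0 to 0.835 CPM, with Ptprc at 0 to 2 reads and Cd3e at 0. The summed endothelial markers read 0.785 to 3.09 CPM in Ctl MSC and 1.62 to 3.32 CPM in MSC-TPr. Among them Kdr had 9 to 54 reads and Pecam1 0 to 4, and Kdr, like Cd68, was lowest in Ctl MSC 1, MSC-TPr 2 and MSC-TPr 3. In each group 1 library stood apart from the other two: the mean log2 CPM of 20 mitosis genes stood at 6.41, 3.09 and 3.06 for Ctl MSC 1, 2 and 3 and at 3.11, 6.30 and 6.38 for MSC-TPr 1, 2 and 3.

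The 35 repair genes split in the same way as those libraries. Their mean log2 CPM stood at 4.18, 2.93 and 2.91 for Ctl MSC 1, 2 and 3 and at 2.69, 3.93 and 4.07 for MSC-TPr 1, 2 and 3, so that Ctl MSC 1, MSC-TPr 2 and MSC-TPr 3 were high and the other 3 libraries low. For 25 of the 35 genes these were the 3 highest libraries, an order found in 23% of all genes tested. Rad52 and Atm had the inverse order, with the same 3 libraries lowest (21.7% of all genes tested), and the remaining 8 genes had some other order. The high group included Brca1, Bard1, Fancd2, Fanci, Brip1, Exo1, Eme1 and Rad54l, which differed by 6.36-fold to 28.3-fold between their highest and lowest library. At the other end Chek2 differed by 1.13-fold and Atr by 1.37-fold. Chek2 is counted among the 25, but on a gap as small as 24.26 CPM in MSC-TPr 3 against 24.16 CPM in Ctl MSC 3. Brca2 is also counted there, with 15.14 CPM in MSC-TPr 2 against 15.06 CPM in MSC-TPr 1. Over the members the median of this fold was 2.93, against 1.93 over all genes tested. It exceeded 5 in 14 members and was under 2 in 10.

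**Figure D1:**
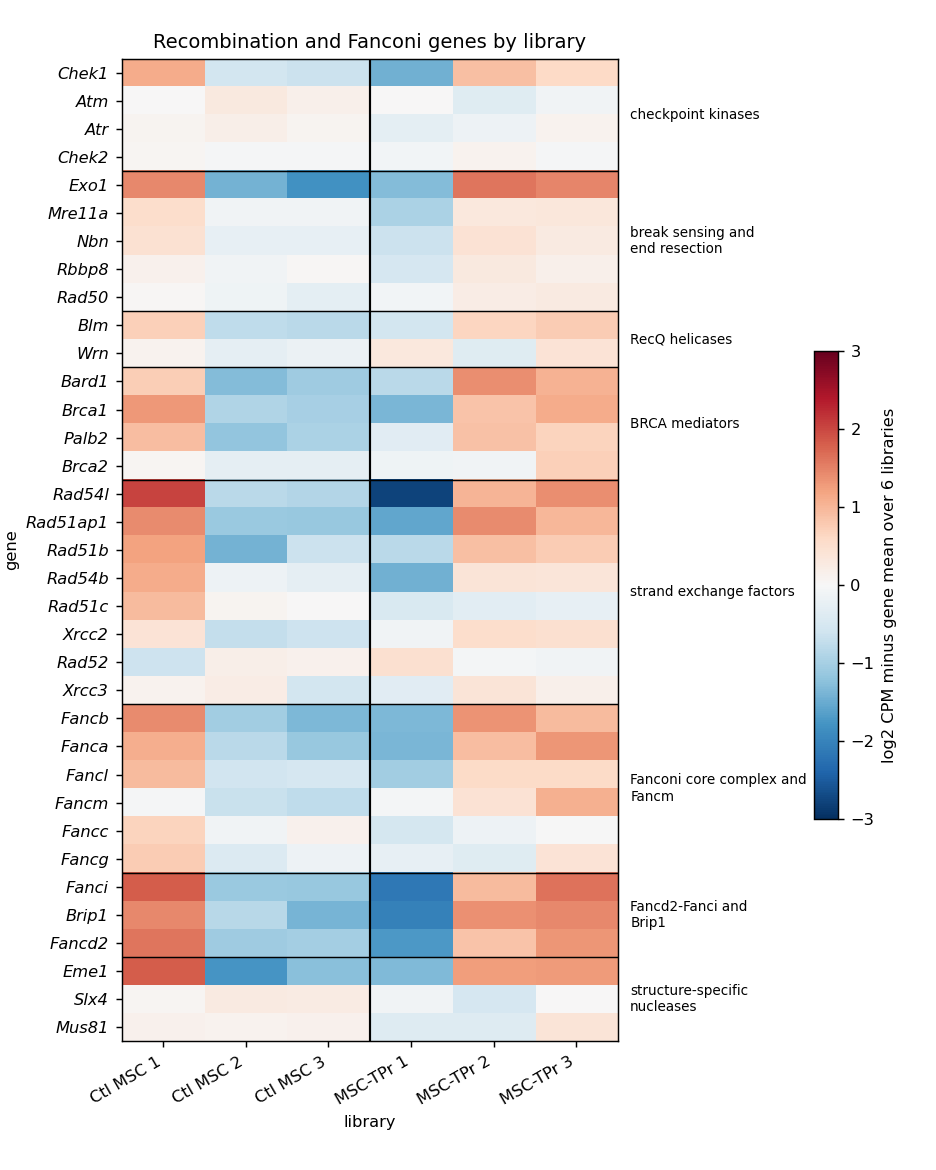
Level of each of the 35 genes (y axis, grouped by role) in each of the 6 libraries (x axis), as log2 CPM minus the gene's mean over the libraries (colour, from -3 to 3). Ctl MSC 1, MSC-TPr 2 and MSC-TPr 3 are red and the other 3 libraries blue for most rows, with Rad54l, Fanci, Eme1, Brip1 and Exo1 spanning the widest range, while Chek2 and Atr are pale throughout.

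Because many members moved together, their promoters are shown for those at both extremes: the 3 genes with the largest fold between libraries and the 3 with the smallest, among the 27 members with an entry in the RefSeq promoter table (build GRCm38.p6). Each sequence runs 5′ to 3′ on the gene's strand from 250 bases before to 50 after the start site. Capitals mark matches, on either strand, to 3 kinds of motif: E2F words (TTTCCCGC, TTTCGCGC, TTTGCCGC or TTTGGCGC), the cell cycle homology region TTTGAA, and the CCAAT box. The table holds 2 start sites for Rad51b, Rad51c and Rad54l, and a gene was counted if a motif lay in either window. For Rad54l the first window is shown, and the other is shifted by 1 base. E2F factors are known to act on S-phase genes, and the CHR on genes of the later cell cycle. The 3 most variable genes were Rad54l (chr4:116123641-116123940, minus strand), Fanci (chr7:79392088-79392387, plus strand) and Eme1 (chr11:94653694-94653993, minus strand).
Rad54l: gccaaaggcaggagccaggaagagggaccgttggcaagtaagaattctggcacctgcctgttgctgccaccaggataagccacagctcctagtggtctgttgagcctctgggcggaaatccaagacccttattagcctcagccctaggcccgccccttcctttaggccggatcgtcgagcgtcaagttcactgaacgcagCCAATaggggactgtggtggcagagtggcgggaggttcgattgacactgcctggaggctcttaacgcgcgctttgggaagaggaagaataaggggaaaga
Fanci: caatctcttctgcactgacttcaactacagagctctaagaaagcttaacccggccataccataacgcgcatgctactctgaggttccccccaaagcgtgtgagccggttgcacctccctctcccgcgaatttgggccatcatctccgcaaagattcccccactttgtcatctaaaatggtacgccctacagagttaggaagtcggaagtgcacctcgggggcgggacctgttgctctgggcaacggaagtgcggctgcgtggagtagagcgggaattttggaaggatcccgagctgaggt
Eme1: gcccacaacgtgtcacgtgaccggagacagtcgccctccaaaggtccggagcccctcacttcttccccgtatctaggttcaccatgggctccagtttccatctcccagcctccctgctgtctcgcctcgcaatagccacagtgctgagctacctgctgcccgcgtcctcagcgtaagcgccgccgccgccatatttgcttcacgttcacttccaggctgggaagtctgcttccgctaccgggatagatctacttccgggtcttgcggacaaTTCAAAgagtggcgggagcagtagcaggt
The 3 least variable were Atm (chr9:53536622-53536921, minus strand), Atr (chr9:95857347-95857646, plus strand) and Chek2 (chr5:110839733-110840032, plus strand).
Atm: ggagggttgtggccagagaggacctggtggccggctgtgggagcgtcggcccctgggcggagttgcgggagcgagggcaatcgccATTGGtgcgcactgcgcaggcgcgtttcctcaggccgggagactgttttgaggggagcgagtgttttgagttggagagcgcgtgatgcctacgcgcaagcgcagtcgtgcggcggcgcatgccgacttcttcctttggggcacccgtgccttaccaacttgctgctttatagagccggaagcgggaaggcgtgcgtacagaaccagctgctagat
Atr: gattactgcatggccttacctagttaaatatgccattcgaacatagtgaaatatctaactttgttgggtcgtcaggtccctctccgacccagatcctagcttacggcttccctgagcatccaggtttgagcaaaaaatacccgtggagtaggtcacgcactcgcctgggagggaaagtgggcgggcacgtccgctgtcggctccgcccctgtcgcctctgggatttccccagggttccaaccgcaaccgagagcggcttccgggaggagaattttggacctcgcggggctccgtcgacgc
Chek2: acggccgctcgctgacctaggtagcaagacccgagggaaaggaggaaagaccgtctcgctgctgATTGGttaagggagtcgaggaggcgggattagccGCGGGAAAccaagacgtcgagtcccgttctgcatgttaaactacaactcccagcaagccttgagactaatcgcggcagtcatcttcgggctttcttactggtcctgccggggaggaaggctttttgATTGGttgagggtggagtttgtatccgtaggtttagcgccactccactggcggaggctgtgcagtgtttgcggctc
Neither Fanci nor Atr, which sit at opposite extremes, held a match. Rad54l held a CCAAT box with its first base 50 bases before the start site, and Eme1 a CHR word beginning at base 21 after it. Atm held a CCAAT box, and Chek2 held 2 CCAAT boxes and an E2F word. Over the 27 members, an E2F word was found in 5 (Bard1, Brca2, Chek2, Fancg and Rad51c), or 18.5%, against 4.82% of 8947 tested genes with an entry and 2.61% of all 27025 genes with an entry. A CHR word was found in 3 (Bard1, Eme1 and Rad51b), or 11.1%, against 13.8% of tested genes, that of Rad51b in its second window alone. A CCAAT box was found in 16, or 59.3%, against 43.7%. Of the 18 members with an entry in which Ctl MSC 1, MSC-TPr 2 and MSC-TPr 3 were highest, 3 (16.7%) held an E2F word, 3 a CHR word and 12 a CCAAT box. Of the other 9 members with an entry, 2 (22.2%) held an E2F word, 0 a CHR word and 4 a CCAAT box. No 2 kinds of match overlapped. These are matches of letters in a fixed window, and no site was measured.

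The question the design poses is whether these genes differ between MSC-TPr and Ctl MSC. Over all 6 libraries, 0 of 35 members were called by edgeR's quasi-likelihood test (adjusted p under 0.05, with a log2 fold change no smaller than 0.5 in size), where 0.426% of all genes were called, 0.0251% higher and 0.401% lower in MSC-TPr. DESeq2 also called 0 members, although it called 683 genes in all, where edgeR called 51. At an unadjusted p under 0.05 there was 1 member, Fancm, where 15% of all genes passed. The members' log2 fold changes lay between -0.75 and 1.05, and 24 were positive. Their median was 0.20, against 0.012 over all genes tested. The groups overlapped for 33 members. No member had all 3 MSC-TPr libraries above all 3 Ctl MSC libraries (10.6% of all genes did), and 2 were lower, Rad51c and Slx4 (12.1% of all genes were).

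The overlap hid opposite differences between pairs of libraries. With the libraries numbered 1 left out, so that MSC-TPr 2 and 3 were compared with Ctl MSC 2 and 3, edgeR called 20 of 35 members higher and 0 lower in MSC-TPr. In the same fit 40% of all genes were called, 20.6% higher and 19.4% lower. DESeq2 called 19 of these members higher (18.6% of all genes). The median log2 fold change of the members was 1.11, against 0.0018 over all genes. Leaving out the library of each group that stood apart narrows the spread the test sees, so these p-values hold for those 4 libraries only. In the libraries numbered 1 the order was inverse: 32 of 35 members were lower in MSC-TPr 1 than in Ctl MSC 1 (50% of all genes were), 22 of them by at least 2-fold (16.5% of all genes). The median log2 ratio was -1.27, and with 1 library a group it has no test. The direction in the libraries numbered 1 was opposite to that in the other 4 for 29 members, or 82.9%, against 62.1% of all genes. It was opposite for all 20 members called higher, against 75.9% of all genes called higher.

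**Figure D2:**
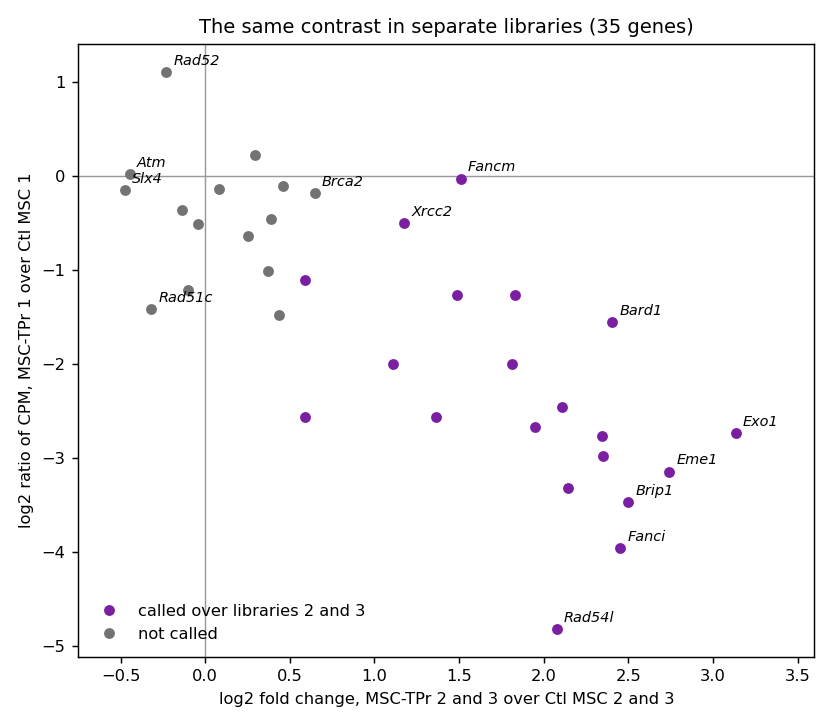
Each point is 1 of the 35 genes, with its log2 fold change between MSC-TPr 2 and 3 and Ctl MSC 2 and 3 on the x axis and the log2 ratio of MSC-TPr 1 to Ctl MSC 1 on the y axis (purple, called over libraries 2 and 3). The 20 called genes all lie to the right of and below 0, down to -4.82 for Rad54l, and Rad52 lies highest on the y axis, at 1.11.

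When each library's mean log2 CPM of the 20 mitosis genes was added to the fit over all 6 libraries, 3 members were called, all lower in MSC-TPr: Rad51c, Rad54l and Rad54b. In that fit 12.1% of all genes were called, 7.35% lower and 4.76% higher. The members' median log2 fold change was then -0.25, with 25 negative and 10 positive. The mitosis list was chosen with these libraries' results known, and what part the mitosis genes' level has in the members' result was not tested.

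**Figure D3:**
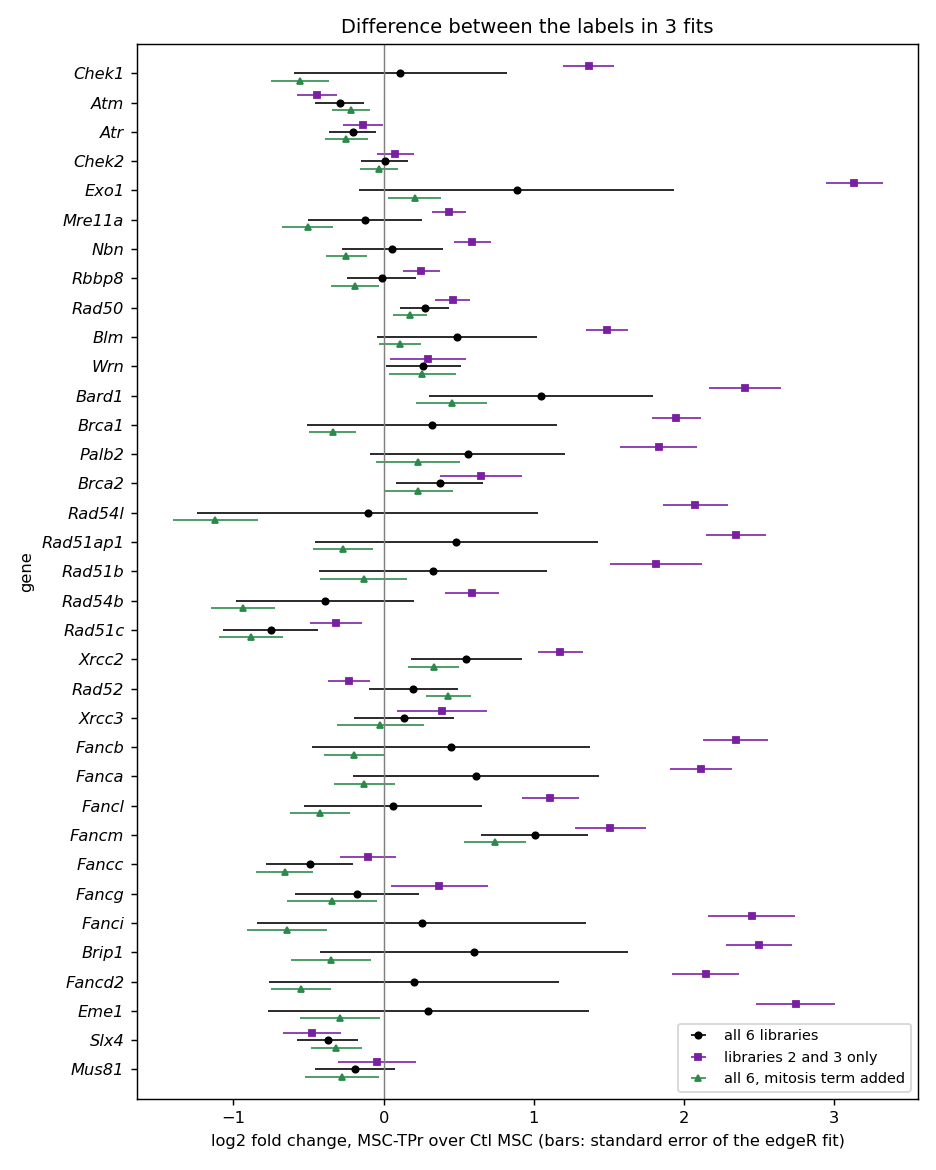
Log2 fold change of MSC-TPr over Ctl MSC (x axis) for each of the 35 genes (y axis) with its standard error (bars), fitted over all 6 libraries (black), over libraries 2 and 3 (purple) and over all 6 with the mitosis term (green). The bars of the black points are wide for genes such as Rad54l (1.13) and narrow for Chek2 (0.156), and most purple points lie to the right of the black ones.

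In the gene by gene values that follow, sets of 3 are given in the order of libraries 1, 2 and 3, and SE stands for the standard error on the log2 scale. Among the checkpoint kinases, Chek1 stood apart from the rest. Chek1, the kinase that Atr switches on at stalled forks (chr9:36708482-36727065), read 29.4, 9.29 and 8.60 CPM for Ctl MSC, against 4.98, 25.5 and 20.6 CPM for MSC-TPr. Its groups overlapped across almost the whole range, and the log2 fold change was 0.11 (SE 0.711, edgeR adjusted p = 0.958). Over libraries 2 and 3 it was 1.36 (SE 0.167, edgeR adjusted p = 0.0019). Chek2, the corresponding target of Atm (chr5:110839979-110874145), read 25.9, 24.1 and 24.2 CPM in the 3 Ctl MSC libraries, against 23.6, 26.7 and 24.3 CPM in the 3 of MSC-TPr. It was the flattest of the 35 genes, within 1.13-fold across the 6 libraries. Atm, the kinase that responds to chromosome breaks, read 90.2, 111 and 99.5 CPM across the Ctl MSC libraries and 91.5, 70.6 and 83.4 CPM across the MSC-TPr libraries. MSC-TPr 2 was the lowest of the 6, and the groups overlapped only through the libraries numbered 1. The log2 fold change of Atm was -0.29 (SE 0.163, edgeR adjusted p = 0.456) over all libraries and -0.45 (SE 0.134, edgeR adjusted p = 0.0377) over libraries 2 and 3, the latter short of the fold threshold. Atr, which responds to single-stranded DNA, read 48.7, 51.9 and 49.0 CPM among the Ctl MSC libraries and 38.0, 41.8 and 49.8 CPM among those of MSC-TPr. These groups overlapped through MSC-TPr 3.

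All 5 genes of break sensing and end resection had Ctl MSC 1, MSC-TPr 2 and MSC-TPr 3 as their highest libraries, but the size differed widely among them. Exo1, the exonuclease that lengthens the resected end (chr1:175880581-175913489), read 23.6, 3.26 and 2.48 CPM in the 3 Ctl MSC libraries, against 3.54, 26.4 and 24.1 CPM in the 3 of MSC-TPr. Its log2 fold change was 0.89 (SE 1.05, edgeR adjusted p = 0.742) over all libraries. Over libraries 2 and 3 it was 3.13 (SE 0.19, edgeR adjusted p = 0.000199), or 8.78-fold, the largest of the members. Mre11a, Rad50 and Nbn form the complex that first binds a break. Mre11a, its nuclease, read 46.2, 29.96 and 29.6 CPM across the Ctl MSC libraries and 16.6, 39.7 and 40.8 CPM across the MSC-TPr libraries. MSC-TPr 1 was the lowest library for Mre11a, and its log2 fold change was -0.12 (SE 0.381, edgeR adjusted p = 0.906) over all libraries and 0.44 (SE 0.113, edgeR adjusted p = 0.0237) over libraries 2 and 3, under the fold threshold. Nbn, the adaptor that recruits Atm, read 54.9, 34.1 and 33.8 CPM for Ctl MSC, against 25.5, 53.9 and 48.2 CPM for MSC-TPr. It was called over libraries 2 and 3 only, where its log2 fold change was 0.59 (SE 0.121, edgeR adjusted p = 0.0106), against 0.057 (SE 0.337, edgeR adjusted p = 0.954) over all 6. Rad50, the tether that holds the ends, read 90.5, 80.8 and 72.6 CPM in the 3 Ctl MSC libraries, against 84.0, 104 and 107 CPM in the 3 of MSC-TPr. Rbbp8 (CtIP), the cofactor that starts resection, read 44.8, 38.1 and 41.5 CPM across the Ctl MSC libraries and 28.7, 49.6 and 44.9 CPM across the MSC-TPr libraries. Both varied little, by 1.47-fold and 1.73-fold between the highest and the lowest library.

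The 2 RecQ helicases differed in their pattern. Blm, which dissolves joined DNA molecules, read 24.9, 8.92 and 8.715 CPM among the Ctl MSC libraries and 10.4, 23.8 and 25.5 CPM among those of MSC-TPr. It had a log2 fold change equal to 0.49 (SE 0.532, edgeR adjusted p = 0.717) over the 6 libraries and to 1.49 (SE 0.138, edgeR adjusted p = 0.000774) over libraries 2 and 3. Wrn, the Werner syndrome helicase, read 30.1, 23.3 and 24.9 CPM in the 3 Ctl MSC libraries, against 35.2, 21.8 and 37.1 CPM in the 3 of MSC-TPr. It was 1 of 3 members not lower in MSC-TPr 1 than in Ctl MSC 1, beside Rad52 and Atm, and its log2 fold change was 0.26 (SE 0.249, edgeR adjusted p = 0.667) over all libraries.

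The 4 BRCA mediators all had the common order of libraries, and Brca2 moved least. Brca1, which promotes resection and recruits Palb2 (chr11:101488764-101551955), read 30.3, 6.57 and 6.12 CPM across the Ctl MSC libraries and 4.76, 22.2 and 26.7 CPM across the MSC-TPr libraries. Its highest and lowest libraries both carried the number 1. The log2 fold change of Brca1 was 0.32 (SE 0.832, edgeR adjusted p = 0.888) over all libraries and 1.95 (SE 0.165, edgeR adjusted p = 0.000561) over libraries 2 and 3. Bard1, its partner in a ubiquitin ligase, read 6.34, 1.55 and 1.82 CPM for Ctl MSC, against 2.16, 10.1 and 7.84 CPM for MSC-TPr. Ctl MSC 1 lay below MSC-TPr 2 and 3 here, and the log2 fold change of Bard1, 1.05 (SE 0.744, edgeR adjusted p = 0.554), was the largest of the 35 over all libraries. Over libraries 2 and 3 it was 2.40 (SE 0.24, edgeR adjusted p = 0.000944). Palb2, which joins Brca1 to Brca2, read 4.65, 1.07 and 1.27 CPM in the 3 Ctl MSC libraries, against 1.94, 4.50 and 3.85 CPM in the 3 of MSC-TPr. Its log2 fold change was 0.56 (SE 0.649, edgeR adjusted p = 0.735) over all libraries and 1.83 (SE 0.257, edgeR adjusted p = 0.00298) over libraries 2 and 3. Brca2, which loads the recombinase, read 17.1, 13.5 and 13.6 CPM across the Ctl MSC libraries and 15.1, 15.1 and 27.0 CPM across the MSC-TPr libraries. Only MSC-TPr 3 lay clear of the rest, 1.998-fold above the lowest library.

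Among the 8 strand exchange factors the translocase Rad54l (chr4:116094264-116123690) varied most of all 35 genes. It read 18.8, 2.62 and 2.48 CPM among the Ctl MSC libraries and 0.664, 9.35 and 12.1 CPM among those of MSC-TPr, where the lowest value rests on 12 reads. Ctl MSC 1 was the highest library and MSC-TPr 1 the lowest, 28.3-fold apart. Its log2 fold change was -0.11 (SE 1.13, edgeR adjusted p = 0.975) over all libraries, 2.08 (SE 0.218, edgeR adjusted p = 0.00115) over libraries 2 and 3, and -1.12 (SE 0.285, edgeR adjusted p = 0.0402) with the mitosis term. Rad54b, a related translocase, read 11.8, 4.86 and 4.52 CPM in the 3 Ctl MSC libraries, against 1.99, 7.16 and 6.96 CPM in the 3 of MSC-TPr. Its log2 fold change was likewise called with opposite signs, at 0.59 (SE 0.179, edgeR adjusted p = 0.0386) over libraries 2 and 3 and -0.94 (SE 0.215, edgeR adjusted p = 0.0306) with the mitosis term, and was -0.39 (SE 0.592, edgeR adjusted p = 0.805) over all 6. DESeq2 did not call Rad54b over libraries 2 and 3 (adjusted p = 0.147), and Fsbp, transcribed in the same direction, shares 35.8% of its exon bases, which leaves the count uncertain. Rad51ap1, which stimulates strand pairing, read 26.7, 4.65 and 4.52 CPM across the Ctl MSC libraries and 3.38, 26.7 and 19.99 CPM across the MSC-TPr libraries. Ctl MSC 1 and MSC-TPr 2 were level, and the log2 fold change was 0.48 (SE 0.944, edgeR adjusted p = 0.85) over all libraries and 2.35 (SE 0.201, edgeR adjusted p = 0.000579) over libraries 2 and 3.

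The recombinase paralogues Rad51b, Rad51c, Xrcc2 and Xrcc3, which act in complexes that steady the recombinase filament, did not share a pattern. Rad51c (chr11:87376645-87404954) read 13.2, 7.16 and 6.84 CPM for Ctl MSC, against 4.93, 5.44 and 5.75 CPM for MSC-TPr. Every MSC-TPr library lay below every Ctl MSC library, with means of 5.37 ± 0.416 and 9.06 ± 3.57 CPM (SD, n = 3 each) and with Ctl MSC 1 well above the other libraries. The log2 fold change of Rad51c was -0.75 (SE 0.316, edgeR adjusted p = 0.333) over all libraries and -0.32 (SE 0.174, edgeR adjusted p = 0.18) over libraries 2 and 3. It was -0.88 (SE 0.213, edgeR adjusted p = 0.0344) with the mitosis term. Rad51b read 5.56, 0.908 and 1.54 CPM in the 3 Ctl MSC libraries, against 1.38, 4.55 and 4.08 CPM in the 3 of MSC-TPr. Over all libraries its log2 fold change was 0.33 (SE 0.759, edgeR adjusted p = 0.877), and over libraries 2 and 3 it was 1.81 (SE 0.305, edgeR adjusted p = 0.00542). Xrcc2 read 14.5, 6.68 and 7.12 CPM across the Ctl MSC libraries and 10.2, 15.8 and 15.4 CPM across the MSC-TPr libraries. Both libraries numbered 1 lay between the low and the high ones, and the log2 fold change was 0.55 (SE 0.369, edgeR adjusted p = 0.533) over all libraries and 1.18 (SE 0.152, edgeR adjusted p = 0.00226) over libraries 2 and 3. Xrcc3 read 3.87, 4.17 and 2.43 CPM among the Ctl MSC libraries and 2.82, 4.67 and 3.99 CPM among those of MSC-TPr, overlapping throughout. Rad52, which anneals complementary strands (chr6:119902698-119922828), read 8.82, 15.2 and 14.9 CPM in the 3 Ctl MSC libraries, against 19.0, 12.96 and 12.7 CPM in the 3 of MSC-TPr. It had the inverse of the common order, with Ctl MSC 1 lowest and MSC-TPr 1 highest, and was the sole member whose level in MSC-TPr 1 exceeded that in Ctl MSC 1 by at least 2-fold.

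**Figure D4:**
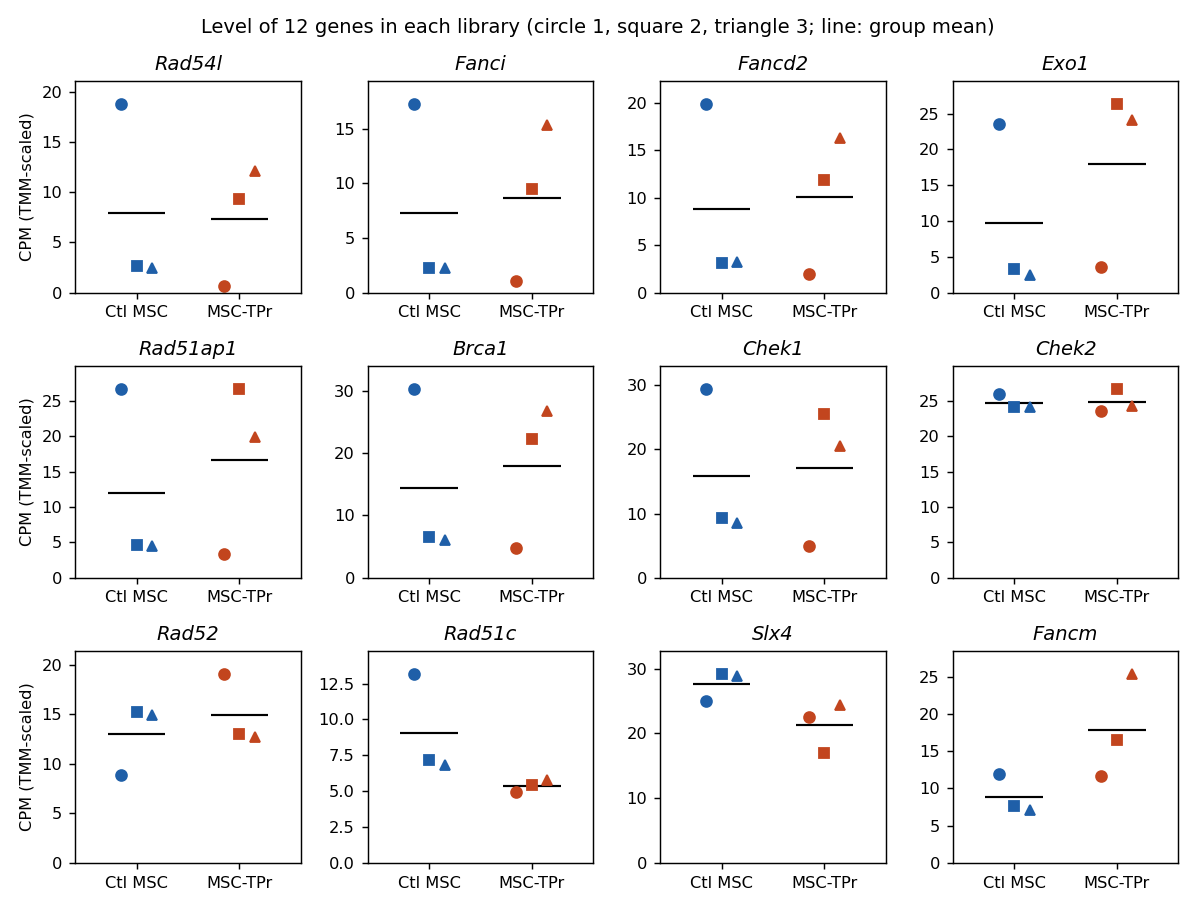
TMM-scaled CPM (y axis, from 0) of 12 of the 35 genes in each library, by group (x axis; circle, library 1; square, library 2; triangle, library 3) with the group mean as a line. In the panels of Rad54l, Fanci, Fancd2, Exo1, Rad51ap1, Brca1 and Chek1 the circle of Ctl MSC lies with the MSC-TPr square and triangle, Chek2 is level, Rad52 is inverse, and in Rad51c and Slx4 the groups do not overlap. In Fancm they overlap only through the libraries numbered 1.

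Within the Fanconi core complex, which adds ubiquitin to the clamp, Fanca and Fancb varied most and Fancc and Fancg least. Fanca, a scaffold subunit, read 23.1, 6.20 and 4.96 CPM across the Ctl MSC libraries and 4.21, 20.9 and 27.2 CPM across the MSC-TPr libraries. It had a log2 fold change equal to 0.61 (SE 0.821, edgeR adjusted p = 0.777) over the 6 libraries and to 2.11 (SE 0.206, edgeR adjusted p = 0.000899) over libraries 2 and 3. Fancb, a subunit encoded on the X chromosome, read 20.7, 3.74 and 3.03 CPM for Ctl MSC, against 3.05, 19.5 and 14.98 CPM for MSC-TPr. MSC-TPr 1 lay with Ctl MSC 2 and 3, and the log2 fold change was 0.45 (SE 0.925, edgeR adjusted p = 0.858) over all libraries and 2.34 (SE 0.218, edgeR adjusted p = 0.000777) over libraries 2 and 3. Fancl, the ubiquitin ligase subunit, read 9.06, 3.15 and 3.31 CPM in the 3 Ctl MSC libraries, against 2.27, 6.98 and 6.96 CPM in the 3 of MSC-TPr. Its log2 fold change was 0.065 (SE 0.592, edgeR adjusted p = 0.971) over all libraries and 1.11 (SE 0.188, edgeR adjusted p = 0.00547) over libraries 2 and 3. Fancm, the translocase that anchors the complex to DNA (chr12:65075603-65132058), read 11.9, 7.58 and 7.17 CPM across the Ctl MSC libraries and 11.7, 16.4 and 25.4 CPM across the MSC-TPr libraries. MSC-TPr 1 fell just under Ctl MSC 1 and the other MSC-TPr libraries lay above all Ctl MSC libraries, so that the groups overlapped by that 1 pair. The log2 fold change of Fancm was 1.01 (SE 0.358, edgeR adjusted p = 0.269), 1.51 (SE 0.237, edgeR adjusted p = 0.00431) over libraries 2 and 3, and 0.74 (SE 0.206, edgeR adjusted p = 0.0519) with the mitosis term. Fancc read 10.8, 6.30 and 7.39 CPM among the Ctl MSC libraries and 4.65, 6.03 and 6.68 CPM among those of MSC-TPr. Fancg read 4.89, 2.19 and 2.59 CPM in the 3 Ctl MSC libraries, against 2.44, 2.25 and 3.85 CPM in the 3 of MSC-TPr. For both of these core subunits Ctl MSC 1 was the highest library, and the groups overlapped.

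Fancd2, Fanci and Brip1 all fell in the most variable group, with 10.0-fold (Fancd2) to 15.6-fold (Fanci) between their highest and lowest libraries. Fancd2, a member of the clamp that receives ubiquitin (chr6:113531682-113597017), read 19.9, 3.15 and 3.25 CPM across the Ctl MSC libraries and 1.99, 11.9 and 16.3 CPM across the MSC-TPr libraries. Over all libraries its log2 fold change was 0.20 (SE 0.965, edgeR adjusted p = 0.94), and over libraries 2 and 3 it was 2.14 (SE 0.224, edgeR adjusted p = 0.00112). Fanci, the other member (chr7:79391929-79450264), read 17.3, 2.30 and 2.26 CPM for Ctl MSC, against 1.11, 9.46 and 15.4 CPM for MSC-TPr. It followed Fancd2 from library to library, and its log2 fold change was 0.25 (SE 1.1, edgeR adjusted p = 0.934) over all libraries and 2.45 (SE 0.292, edgeR adjusted p = 0.00174) over libraries 2 and 3. Brip1 (FancJ), the helicase that binds Brca1 (chr11:86058138-86201193), read 19.0, 3.90 and 2.65 CPM in the 3 Ctl MSC libraries, against 1.72, 18.0 and 19.1 CPM in the 3 of MSC-TPr. Ctl MSC 1 and MSC-TPr 3 were nearly equal, and the log2 fold change was 0.60 (SE 1.02, edgeR adjusted p = 0.827) over all libraries and 2.50 (SE 0.218, edgeR adjusted p = 0.000619) over libraries 2 and 3.

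Of the structure-specific nucleases, Eme1 varied 12.01-fold and its catalytic partner 1.70-fold. Eme1, the regulatory subunit of that nuclease (chr11:94644996-94653964), read 8.34, 0.694 and 0.993 CPM across the Ctl MSC libraries and 0.941, 5.62 and 5.71 CPM across the MSC-TPr libraries, the lowest value resting on 13 reads. It had a log2 fold change equal to 0.30 (SE 1.07, edgeR adjusted p = 0.919) over the 6 libraries and to 2.74 (SE 0.266, edgeR adjusted p = 0.000872) over libraries 2 and 3. Mus81, the catalytic subunit, read 11.4, 11.2 and 11.3 CPM among the Ctl MSC libraries and 7.97, 7.99 and 13.6 CPM among those of MSC-TPr. The Ctl MSC libraries were level and only MSC-TPr 3 lay above them. Slx4, the scaffold that holds several nucleases (chr16:3979105-4003770), read 25.01, 29.2 and 28.8 CPM in the 3 Ctl MSC libraries, against 22.6, 17.0 and 24.4 CPM in the 3 of MSC-TPr. Every MSC-TPr library lay below every Ctl MSC library, with means of 21.3 ± 3.89 and 27.7 ± 2.30 CPM (SD, n = 3 each). The gap between MSC-TPr 3 and Ctl MSC 1 was small, and the log2 fold change was -0.37 (SE 0.2, edgeR adjusted p = 0.437) over all libraries and -0.48 (SE 0.19, edgeR adjusted p = 0.0849) over libraries 2 and 3.

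Pairs of genes were compared by the ratio of their levels per kilobase of transcript. Some pairs encode proteins that work as partners, others only related proteins or proteins of the same pathway. Fancd2 to Fanci, the 2 members of the clamp, kept within 0.896 to 1.52, a range of 1.69-fold, although each gene alone varied at least 10.0-fold. Brca1 to Bard1 ranged from 1.90 to 4.11. Nbn to Rad50 ranged from 0.618 to 1.23 and Mre11a to Rad50, of the same complex, from 0.179 to 0.465. Atr to Atm, related kinases rather than partners, ranged from 0.503 to 0.723. Other pairs changed their balance between libraries. Eme1 to Mus81 ranged from 0.0526 in Ctl MSC 2 to 0.621 in Ctl MSC 1, or 11.8-fold. Palb2 to Brca2, partners in loading the recombinase, ranged from 0.226 to 0.849, and Fanca to Fancg from 1.07 to 5.74. Chek1 to Chek2, kinases of separate families, ranged from 0.127 to 0.680. Brca1 to Brca2, which share a pathway, ranged from 0.516 to 2.89. The ratios divide values of the same libraries and carry no test.

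**Figure D5:**
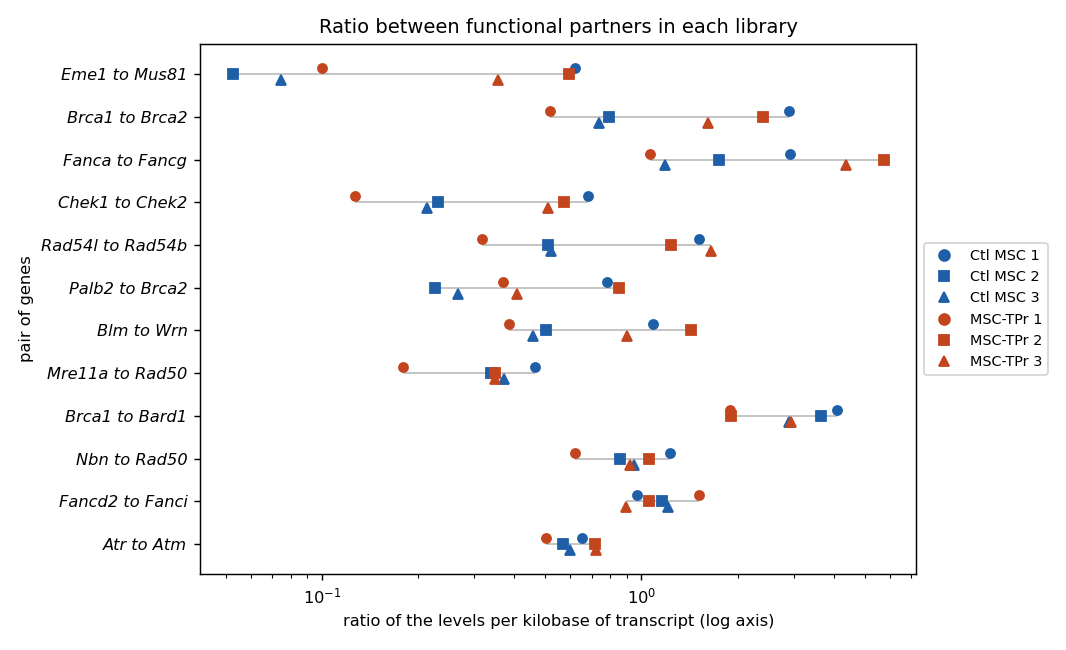
Ratio of the levels per kilobase of transcript of 2 genes (x axis, log scale) in each of the 6 libraries (symbols). The 12 pairs (y axis), of partners or of related proteins, are ordered by range, with a line from the lowest to the highest. Eme1 to Mus81 spans 11.8-fold and Atr to Atm 1.44-fold.

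The members with the highest level per length were among the less variable ones. By the median over the 6 libraries of CPM per kilobase of transcript (RPKM), the most abundant members were Rad50 (16.9), Nbn (16.3), Rbbp8 (12.2), Chek2 (10.6) and Atm (9.25), which differed by at most 2.15-fold between libraries. The least abundant were Bard1 (0.75), Palb2 (0.77) and Fancg (0.91). The counts behind the members ran from 12 reads for Rad54l in MSC-TPr 1 to 2296 for Rad50 in MSC-TPr 3. Exons of several members lie opposite exons of another gene, by up to 16.4% of their exon bases for Fancc, 16.0% for Fanci with Polg and 15.4% for Rad54l with Lrrc41. The paper names a stranded library kit, but the strand setting of the counting is not given in the sources used here. Whether reads from such partners entered the counts therefore cannot be told.

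Other repair genes were summarised by list. Of all genes tested, 23% had Ctl MSC 1, MSC-TPr 2 and MSC-TPr 3 as their highest libraries, and their median fold between highest and lowest library was 1.93. Over libraries 2 and 3, 20.6% of all genes were called higher and 19.4% lower. Of 48 other recombination and Fanconi factors tested, 26 had the order of libraries common among the members, 27 were called higher and 0 lower over libraries 2 and 3, and the median fold between highest and lowest library was 1.87. Of 11 end-joining genes, the alternative route that rejoins ends without a template, 3 had that order (27.3%). Of these 11, 2 were called higher (18.2%) and 0 lower, and the median fold was 1.61. Of 38 excision and mismatch repair genes, 15 had the order (39.5%), 8 were called higher (21.1%) and 3 lower, and the median fold was 1.796. For both of these lists the share called higher was near that of all genes. For end joining the share with the order was also near it. Of the 27 DNA replication genes, 26 had it, 25 were called higher and 0 lower, and the median fold was 4.20. All 20 mitosis genes had the order and were called higher over libraries 2 and 3, with a median fold of 12.7. The members' median fold of 2.93 thus lay between those of end joining and DNA replication, a description with no test of the difference.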

How the data were processed

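RNA was sequenced from 3 Ctl MSC and 3 MSC-TPr libraries, and the authors deposited raw counts per gene, made against mouse build mm10 with HTSeq-count. The submitters' processing notes also name CASAVA 1.8.2, Trimmomatic 0.35 and TopHat2 2.1.0. The paper names a stranded kit for the libraries, but the strand setting and annotation of the counting are not given in the sources used here. In each library 5 rows that name no gene, with 13.8% to 20.8% of the listed reads, were left out.

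The counts were scaled by TMM, filtered by filterByExpr and tested with edgeR 4.0.16 (R 4.3.3, limma 3.58.1) by its quasi-likelihood test on the group, with Benjamini-Hochberg adjustment over all genes tested. A call needed an adjusted p under 0.05 and, in size, at least 0.5 on the log2 scale, and its SE was taken from the fold change and the F statistic. The fit was first tested on simulated data. DESeq2 1.42.0, other scalings and filters, a replicate block, each library left out, libraries 2 and 3 alone and a mitosis term were alternatives. Summaries and plots used Python 3.11.15, pandas 2.3.3 and matplotlib 3.10.9.

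Members and lists were chosen with earlier results of these data known. Values are given for every member, and the fold change, SE and adjusted p for those called in any fit, those whose groups did not overlap, and the 2 with the largest fold between libraries in each role. Gene positions came from GENCODE M21 (GRCm38), in which 21777 of 23420 symbols and all 35 members matched. Levels per length used the longest protein-coding transcript. Libraries of a group differed by a chi-square per gene of 4.97 to 201, so none was a copy. Limits set by reads cover counting error only.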

Additional observations from a re-analysis of the deposited data

How the results depend on the processing

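All alternatives were planned, and none was added later. The plan was made with earlier results of these data known, among them that cell division genes do not follow the labels. The count of members called stayed at 0 with RLE or upper quartile factors, DESeq2, either filter, no fold threshold and each library left out, and became 20 over libraries 2 and 3 and 3 with the mitosis term. The count of all genes called, 51, was 683 by DESeq2, 31 with at least 10 counts in every library, 4854 over libraries 2 and 3, 1450 with the mitosis term, and 0 to 108 with each library left out: 108 without Ctl MSC 1, 1 without MSC-TPr 2, and 0 without Ctl MSC 2, Ctl MSC 3 or MSC-TPr 3. The members' median log2 fold change, 0.20, ran from -0.06 without Ctl MSC 2 to 0.74 without Ctl MSC 1, and was 1.11 over libraries 2 and 3 and -0.25 with the mitosis term. The cause of these changes was not tested beyond which libraries entered. Deviations from the group means, compared between libraries of the same number, had correlations of -0.76, -0.59 and -0.60. The libraries numbered 1 stood apart in opposite directions, which by itself pulls all of these values below 0. They cannot show whether the numbers mark shared preparations, and the numbers were not taken as pairs. With the replicate block, edgeR called 0 genes and 0 members, the members' median was 0.27, and Rad54l turned to 0.52.

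Of 280 log2 fold changes of single members under settings other than leaving out 1 library, 236 kept their direction and their side of the threshold. Another 23 turned, in 20 members, and 21 passed the threshold without turning. Among those that turned, Rad54l and Rad54b over libraries 2 and 3 passed it as well. With the mitosis term, values turned to -0.34 for Brca1, -0.35 for Brip1, -0.56 for Chek1, -0.029 for Chek2, -0.29 for Eme1, -0.13 for Fanca, -0.20 for Fancb, -0.55 for Fancd2, -0.64 for Fanci, -0.42 for Fancl, -0.25 for Nbn, -0.27 for Rad51ap1, -0.13 for Rad51b and -0.022 for Xrcc3. Chek2 also turned with upper quartile factors (-0.038) and with at least 10 counts in every library (-0.0074). Over libraries 2 and 3, values turned to 0.37 for Fancg, 0.44 for Mre11a, -0.23 for Rad52, 0.59 for Rad54b, 2.08 for Rad54l and 0.25 for Rbbp8. With each library left out in turn, 167 of 210 values kept their direction, no member was called, and 18 members turned at least once. Their ranges were -0.074 to 1.497 for Brca1, -0.30 to 0.93 for Chek1, -0.044 to 0.043 for Chek2, -0.19 to 2.27 for Eme1, -0.014 to 1.88 for Fancb, -0.33 to 1.66 for Fancd2, -0.45 to 0.26 for Fancg, -0.45 to 1.92 for Fanci, -0.19 to 0.74 for Fancl, -0.32 to 0.19 for Mre11a, -0.15 to 0.33 for Nbn, -0.024 to 1.87 for Rad51ap1, -0.085 to 1.45 for Rad51b, -0.018 to 0.33 for Rad52, -0.65 to 0.20 for Rad54b, -0.66 to 1.53 for Rad54l, -0.17 to 0.19 for Rbbp8 and -0.070 to 0.31 for Xrcc3.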

Other observations

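Also summarised were the 12 targets of p53 on a list chosen with earlier results of these data known, genes that a damaged cell is known to switch on. Over libraries 2 and 3, edgeR called 2 of them higher and 3 lower in MSC-TPr, with a median log2 fold change of -0.20, where 20.6% and 19.4% of all genes were called higher and lower. Of the 12, 2 (16.7%) had Ctl MSC 1, MSC-TPr 2 and MSC-TPr 3 as their highest libraries, against 23% of all genes tested. Another 5 (41.7%) had them as their lowest, against 21.7% of all genes tested. Whether DNA damage has a part in the members' levels was not tested.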
